A study of Mus musculus with 25 samples.

Results

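The 47 genes described here encode the ligands, receptors, latency proteins and SMAD transducers of the transforming growth factor beta (TGF-beta) and bone morphogenetic protein (BMP) pathway. They were measured on 25 arrays of RNA bound to podocyte ribosomes. They were chosen by symbol, from the Tgfb, Tgfbr, Bmp, Bmpr, Gdf, Inhb, Acvr, Smad and Ltbp families, out of 17097 genes named on the array. Each gene was represented by the brightest, on average, of its probe sets with exactly 1 gene symbol. Of the 47 genes, 33 passed a filter that left out the dimmest 30% of genes, and 14 did not. The rule used no measured difference between groups.

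TGF-beta family ligands are secreted dimers that bring together type II and type I receptor kinases. The activated type I receptor phosphorylates receptor SMADs, which join Smad4 and enter the nucleus. TGF-beta and the activins signal mainly through Smad2 and Smad3, and BMPs through Smad1, Smad5 and Smad9. TGF-beta is stored in the matrix in a latent form, and Smad6 and Smad7 restrain the pathway. In the kidney, TGF-beta is known for its part in glomerular scarring and podocyte loss, and BMP7 for its part in nephron formation.

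The mice carried a ribosomal protein tag under a collagen promoter (Tg:Col1a1-eGFPL10a), by which ribosomes with their RNA were purified from podocytes, which cover the capillaries of the glomerulus. Knock-in (KI) mice also carried the Actn4tm1.1Plk allele of alpha-actinin-4, an actin crosslinker. Control (WT) mice carried the tag without it. The strain was labelled C57/129sv and the sex unknown, and the sources used here do not give whether KI mice carried the allele on 1 or both chromosomes. The groups were KI and WT at 2 weeks (4 arrays each), KI and WT at 5 weeks (4 and 5 arrays) and KI and WT at 44 weeks (4 arrays each). The labels do not state that arrays stand for separate mice. The p-values therefore reflect only the spread among these arrays, which may be technical. The targeted gene, Actn4, was not analysed here, and the genotype labels could therefore not be checked on it.

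The deposited values were on a log2 scale, from 1.86 to 13.62 over all probe sets, and the medians of the 25 arrays lay within 0.17 of each other. All levels below are log2 values and all differences are log2 differences, tested with limma across 11968 genes with p-values adjusted by the Benjamini-Hochberg method. A gene was called where its adjusted p was under 0.05. The number of arrays limits the precision, with a median standard error of 0.17 (log2) for KI against WT at 5 weeks and 0.18 at 2 and 44 weeks. Arrays of 1 group correlated between 0.94 and 0.99 across the 11968 genes tested.

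The mean of 17 podocyte identity markers lay between 10.59 and 11.34 on every array, so podocyte RNA was present in each group. Markers of other kidney cells were present too. The proximal tubule list of 14 genes averaged 10.23 ± 0.17 in KI and 9.75 ± 0.61 in WT at 44 weeks (SD, n = 4 each). The filter on dim genes kept 13 of 14 proximal tubule, 14 of 16 endothelial, 10 of 12 leukocyte and 7 of 8 fibroblast markers. It kept all markers of the other lists. No probe set read below 1.86 on any array, so a marker could not read 0. WT 5-week arrays 7, 8 and 9 stood apart from arrays 6 and 10 of that group. Their endothelial list means were 5.92, 6.20 and 6.38, against 6.73 and 6.75, and their mesangial list means were 6.94, 7.19 and 7.36, against 8.26 and 8.09. Y-linked genes were bright on 1 of 4 KI arrays and all 4 WT arrays of 2 weeks. At 5 weeks this held for 3 KI and 2 WT arrays, and at 44 weeks for 3 KI arrays and 1 WT array.

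More members were called between ages than between genotypes. In KI, 5 of the 33 tested members were called at 5 against 2 weeks, or 15.2%, against 13.7% of all genes tested. They were 1 higher and 4 lower, beside 5.4% of all genes called higher and 8.29% lower. KI at 44 against 5 weeks also gave 5 calls, or 15.2%, against 16.8% of all genes. They were 3 higher and 2 lower, beside 8.11% and 8.64% of all genes. Comparing 44 with 2 weeks, 12 members were called in KI, or 36.4%, against 30.2% of all genes. They were 5 higher and 7 lower, beside 14.3% and 15.9% of all genes.

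In WT, 12 members were called at 5 against 2 weeks, or 36.4%, against 33.9% of all genes. They were 2 higher and 10 lower, beside 12.2% and 21.7% of all genes. WT at 44 against 5 weeks gave 5 calls, or 15.2%, against 20.1% of all genes, with 3 higher and 2 lower, beside 11.3% and 8.85%. WT at 44 against 2 weeks gave 16 calls, or 48.5%, against 31.6% of all genes. They were 3 higher and 13 lower, beside 13.6% and 18% of all genes. The widest gap from the share over all genes was in this last comparison.

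Some of these counts rested on few arrays. Without WT 5-week arrays 7, 8 and 9 the WT calls at 5 against 2 weeks numbered 4 (Acvrl1, Bmp1, Bmp4 and Ltbp4). WT at 44 against 5 weeks then also gave 4 calls, of which only Acvr2b was among the 5 reported. Bmp6, Ltbp1, Smad4 and Tgfbr1 lost theirs there, and Bmp7, Gdf10 and Tgfb1 were called instead. Leaving out 1 array at a time, the count moved by over 1.5 times in WT at 44 against 5 weeks, to 3 without WT array 8, 15 or 17. In KI at 44 against 5 weeks it was 3 without KI array 23 or 24 and 2 without KI array 25, 26, 32 or 33. Of 58 calls of a member in a comparison, 37 held whichever array was left out.

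Other fits ended calls as well. With the mean of the tubule markers as a covariate, Bmp2, Bmp6 and Ltbp4 in KI at 44 against 2 weeks and Bmp1 in KI at 44 against 5 weeks no longer passed. In WT the same fit ended 4 calls at 44 against 5 weeks, all except Acvr2b, and those of Acvr2b, Gdf9, Smad3, Smad6 and Tgfb3 at 44 against 2 weeks. Fits of the compared arrays alone ended Bmp1 in KI at 44 against 5 weeks. In WT they ended Bmp7, Bmpr2, Gdf9 and Ltbp1 at 5 against 2 weeks, Bmp6, Smad4 and Tgfbr1 at 44 against 5 weeks, and Acvr2b, Gdf9, Gdf10, Smad3 and Smad6 at 44 against 2 weeks. When each gene was taken as the average of its probe sets, the calls of Bmp1 at 5 against 2 weeks, Bmp1 and Tgfbr1 at 44 against 5 weeks and Acvr2b at 44 against 2 weeks ended in KI. In WT this ended Bmp7 at 5 against 2 weeks, Acvr2b, Smad4 and Tgfbr1 at 44 against 5 weeks, and Acvr2b, Smad3 and Smad4 at 44 against 2 weeks. A sex covariate, taken from the Y-linked genes, ended calls in WT only. These were Bmp2, Bmp7 and Bmpr2 at 5 against 2 weeks (adjusted p = 0.069, 0.081 and 0.17). At 44 against 2 weeks they were Acvr2b and Gdf10 (adjusted p = 0.077 and 0.12). In WT, median centring and quantile normalization each ended Bmp6 and Tgfbr1 at 44 against 5 weeks and Acvr2b at 44 against 2 weeks. Quantile normalization also ended Bmpr2 in WT at 5 against 2 weeks and Bmp6 in KI at 44 against 5 weeks. Fits without the dim filter and with a trended prior ended Acvr2b and Smad6 in WT at 44 against 2 weeks. Both also ended Bmp1 in KI at 44 against 5 weeks.

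Against 2 weeks the calls ran mostly downward, while 44 against 5 weeks gave 3 higher and 2 lower in each genotype. The members' median difference at 44 against 5 weeks was 0.10 in KI, beside -0.01 over all genes, and 0.01 in WT, beside 0.05. The median difference of the 33 members at 44 against 2 weeks was -0.16 in KI, beside -0.01 over all genes, and -0.29 in WT, beside -0.03. The arrays of the 2 ages did not overlap for 13 of 33 members in KI and for 13 in WT, beside 34.8% and 27.6% of all genes. The comparisons of 1 genotype share arrays with each other, so their counts are not independent.

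Genotype gave fewer calls. At 2 weeks no member passed, and none of all genes did (0%), with 2 of 33 members at an unadjusted p under 0.05 beside 5.12% of all genes. At 5 weeks 3 of 33 members were called, or 9.09%, against 22% of all genes tested. They were 2 higher and 1 lower, beside 14.3% and 7.75% of all genes. At 44 weeks no member was called, against 0.0251% of all genes, and 2 members had an unadjusted p under 0.05, beside 6.37% of all genes. Averaged over the ages no member was called, against 5.32% of all genes, and 5 had an unadjusted p under 0.05, beside 25.8%. The members' median difference was -0.14, -0.02 and 0.03 at 2, 5 and 44 weeks, beside -0.02, 0.06 and 0.01 over all genes.

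**Figure D1:**
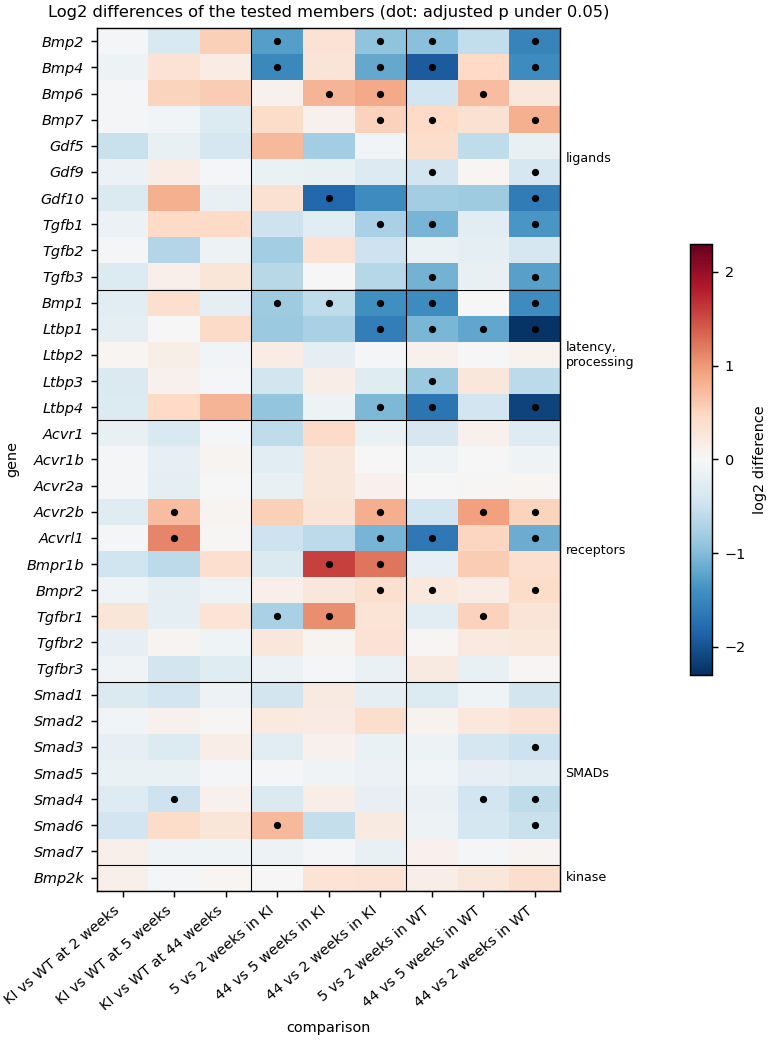
The map shows the log2 difference of each of the 33 tested members (down the page, grouped by role) in 9 comparisons (across): KI against WT at 2, 5 and 44 weeks, then age comparisons within KI and within WT. Red is higher and blue lower in the group named first, and a dot marks an adjusted p under 0.05 (limma). Only the 5-week column of the 3 genotype columns holds dots, for Acvrl1, Acvr2b and Smad4, and in WT at 44 against 2 weeks 13 of the 16 dots mark lower values.

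Among the ligands, the BMPs that fell with age were Bmp4 and Bmp2. Bmp4 encodes a BMP that acts in ureter and glomerulus development. Bmp4 measured 9.15, 9.41, 9.60 and 9.34 in the KI arrays of 2 weeks and 9.71, 9.84, 9.17 and 9.21 in the WT arrays of that age. At 5 weeks, Bmp4 read 7.94, 7.37, 7.76 and 8.53 in KI and 7.72, 7.75, 7.37, 7.77 and 7.23 in WT. The 44-week values of Bmp4 were 8.45, 7.96, 7.92 and 8.46 in KI arrays, against 7.71, 8.30, 8.41 and 7.72 in WT arrays. Every 5-week and 44-week array was below every 2-week array of its own genotype. Between 5 and 2 weeks the KI difference was -1.48 ± 0.23 (SE), with an adjusted p of 2.5e-04, and the WT difference was -1.91 ± 0.21 (adjusted p = 4.9e-06), a ratio of 0.266. Between 44 and 2 weeks the difference was -1.18 ± 0.23 (adjusted p = 5.3e-04) in KI and -1.45 ± 0.23 (adjusted p = 5.7e-05) in WT.

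Bmp2, a close relative of Bmp4, fell in both genotypes as well. At 2 weeks, Bmp2 read 6.75, 7.17, 5.60 and 6.46 in KI and 6.41, 6.87, 6.10 and 6.81 in WT. The 5-week values of Bmp2 were 5.45, 5.31, 4.78 and 5.40 in KI arrays, against 6.36, 5.90, 5.15, 5.32 and 5.15 in WT arrays. For Bmp2, KI arrays of 44 weeks stood at 5.90, 5.70, 5.11 and 5.54, and WT arrays at 4.48, 5.87, 4.93 and 4.80. Its 2-week and 5-week arrays did not overlap in KI and overlapped in WT, through array 6 of 5 weeks. At 5 against 2 weeks the difference was -1.26 ± 0.33 (adjusted p = 0.014) in KI and -0.97 ± 0.31 (adjusted p = 0.019) in WT. The KI call was lost without KI 2-week array 20 or KI 5-week array 25 (adjusted p up to 0.059) and the WT call without WT 2-week arrays 2 or 5 or WT 5-week array 8 (up to 0.061). With 44 set against 2 weeks it was -0.93 ± 0.33 (adjusted p = 0.035) in KI, a call lost without KI 2-week arrays 19, 20 or 22 or KI 44-week arrays 32, 33 or 34 (up to 0.13), and -1.53 ± 0.33 (adjusted p = 0.0012) in WT.

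Bmp6 and Bmp7, which belong to another BMP subgroup, went the other way. The 2-week values of Bmp6 were 7.61, 7.63, 7.22 and 7.46 in KI arrays, against 8.18, 7.53, 6.78 and 7.57 in WT arrays. For Bmp6, KI arrays of 5 weeks stood at 7.83, 7.50, 7.32 and 7.68, and WT arrays at 7.62, 6.54, 6.80, 6.93 and 7.45. Bmp6 measured 8.40, 8.45, 8.52 and 8.06 in the KI arrays of 44 weeks and 8.32, 7.31, 7.75 and 7.72 in the WT arrays of that age. In KI the 44-week arrays were above all younger KI arrays, while in WT the ages overlapped. Bmp6 was higher at 44 against 5 weeks by 0.77 ± 0.26 (adjusted p = 0.041) in KI and 0.71 ± 0.24 (adjusted p = 0.043) in WT. The KI call was lost without KI 5-week arrays 24, 25 or 26 or KI 44-week arrays 31, 32 or 33 (adjusted p up to 0.11), and the WT call without WT 5-week arrays 7, 8 or 9 or WT 44-week arrays 15, 17 or 18 (up to 0.16). At 44 against 2 weeks the KI difference was 0.88 ± 0.26 (adjusted p = 0.012), and the WT difference of 0.26 ± 0.26 did not pass (adjusted p = 0.46). KI against WT at 44 weeks was 0.58 ± 0.26 and did not pass (adjusted p = 0.75).

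Bmp7 is the BMP most used by developing nephrons. For Bmp7, KI arrays of 2 weeks stood at 9.32, 9.28, 8.83 and 8.94, and WT arrays at 9.27, 9.01, 9.11 and 9.13. Bmp7 measured 9.53, 9.67, 9.57 and 9.31 in the KI arrays of 5 weeks and 9.26, 9.94, 9.70, 9.85 and 9.18 in the WT arrays of that age. At 44 weeks, Bmp7 read 9.76, 9.37, 9.73 and 9.62 in KI and 9.69, 10.02, 10.25 and 9.80 in WT. At 44 weeks all arrays of both genotypes lay above the 2-week arrays of their genotype. The difference at 44 against 2 weeks was 0.53 ± 0.16 (adjusted p = 0.019) in KI and 0.81 ± 0.16 (adjusted p = 7.9e-04) in WT, and the KI call was lost without KI 2-week arrays 21 or 22 or KI 44-week arrays 31 or 33 (adjusted p up to 0.074). Between 5 and 2 weeks WT was higher by 0.46 ± 0.16 (adjusted p = 0.028), a call lost without WT 2-week arrays 2, 3 or 5 or WT 5-week arrays 7, 8 or 9 (up to 0.086). The second Bmp7 probe set read -0.49 for that WT comparison and 0.77 for WT at 44 against 2 weeks, so only the later direction was shared. With the mean of all Bmp7 probe sets the WT difference at 5 against 2 weeks was -0.05.

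Of the TGF-beta ligands, Tgfb1 and Tgfb3 were called lower with age and Tgfb2 was not called. Tgfb1 encodes the isoform best known for scarring. Tgfb1 measured 5.60, 5.73, 5.15 and 5.49 in the KI arrays of 2 weeks and 5.79, 5.87, 5.35 and 5.50 in the WT arrays of that age. At 5 weeks, Tgfb1 read 4.82, 5.31, 5.06 and 4.87 in KI and 4.98, 3.81, 4.43, 4.45 and 5.11 in WT. The 44-week values of Tgfb1 were 4.96, 4.49, 4.64 and 4.92 in KI arrays, against 4.59, 4.20, 3.77 and 4.59 in WT arrays. In both genotypes the 44-week arrays were below all 2-week arrays. All 4 WT values of 44 weeks lay below 4.60, the limit that the mean of a gene over all arrays had to pass to be tested, and no detection call was used for them. At 5 against 2 weeks KI differed by -0.48 ± 0.23 without passing (adjusted p = 0.18), and WT differed by -1.07 ± 0.22 (adjusted p = 8.7e-04). Between 44 and 2 weeks the difference was -0.74 ± 0.23 (adjusted p = 0.018) in KI and -1.34 ± 0.23 (adjusted p = 1.6e-04) in WT, and the KI call was lost without KI 2-week array 20 or KI 44-week array 32 (up to 0.058). KI against WT at 44 weeks was 0.46 ± 0.23 (adjusted p = 0.81), which did not pass.

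Tgfb3, another isoform, was called lower with age in WT. At 2 weeks, Tgfb3 read 5.22, 5.62, 5.65 and 5.04 in KI and 5.83, 6.15, 5.42 and 5.40 in WT. The 5-week values of Tgfb3 were 4.50, 5.22, 4.43 and 4.81 in KI arrays, against 5.15, 4.92, 4.26, 4.14 and 4.60 in WT arrays. For Tgfb3, KI arrays of 44 weeks stood at 5.37, 5.02, 4.24 and 4.30, and WT arrays at 4.22, 4.71, 4.67 and 4.21. The KI arrays overlapped between ages, while the WT arrays of 5 and 44 weeks lay below all WT arrays of 2 weeks. The KI differences at 5 and at 44 against 2 weeks were -0.64 ± 0.26 and -0.65 ± 0.26 (adjusted p = 0.11 and 0.066). WT differed by -1.08 ± 0.25 (adjusted p = 0.0025) and -1.24 ± 0.26 (adjusted p = 0.0011). The WT mean at 44 weeks, 4.45, lay below the limit of 4.60 used for the mean of a tested gene, and no detection call was used. The test of whether the genotypes differed at 5 against 2 weeks gave no call (adjusted p = 0.53).

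Tgfb2, the remaining isoform, was not called in any comparison of the reported fit. The 2-week values of Tgfb2 were 6.65, 6.58, 6.63 and 6.08 in KI arrays, against 6.30, 6.77, 6.42 and 6.52 in WT arrays. For Tgfb2, KI arrays of 5 weeks stood at 5.03, 5.42, 5.62 and 6.64, and WT arrays at 5.95, 6.77, 6.51, 6.63 and 5.88. Tgfb2 measured 5.62, 6.48, 5.98 and 5.94 in the KI arrays of 44 weeks and 5.38, 6.44, 6.66 and 5.97 in the WT arrays of that age. The KI 5-week arrays spread from 5.03 to 6.64 and overlapped the WT arrays. KI against WT at 5 weeks was -0.67 ± 0.28 (95% interval -1.26 to -0.08, adjusted p = 0.090). Without WT 5-week array 10 Tgfb2 and Tgfb1 were both called at 5 weeks, making 5 members.

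Gdf10, a relative of the BMPs also known as Bmp3b, varied widely between arrays. For Gdf10, KI arrays of 2 weeks stood at 7.88, 8.67, 8.18 and 7.65, and WT arrays at 9.39, 7.61, 7.91 and 8.81. Gdf10 measured 9.01, 8.27, 8.16 and 8.35 in the KI arrays of 5 weeks and 8.78, 6.90, 6.40, 6.97 and 9.11 in the WT arrays of that age. At 44 weeks, Gdf10 read 7.46, 5.52, 6.58 and 7.04 in KI and 7.72, 7.04, 5.40 and 7.13 in WT. In WT at 5 weeks arrays 6 and 10 were at 8.78 and 9.11, and arrays 7, 8 and 9 were between 6.40 and 6.97. At 44 against 5 weeks the KI difference was -1.80 ± 0.57 (adjusted p = 0.034), a call lost without KI 5-week arrays 23, 24, 25 or 26 or KI 44-week arrays 32 or 33 (adjusted p up to 0.12). With 44 set against 2 weeks the WT difference was -1.60 ± 0.57 (adjusted p = 0.035), a call lost without WT 2-week arrays 1 or 5 or WT 44-week array 17 (up to 0.15). Of the other tested ligands, Gdf9, best known from the oocyte, was lower in WT at 5 and at 44 weeks against 2 weeks, with differences of -0.43 ± 0.12 (adjusted p = 0.010) and -0.39 ± 0.13 (adjusted p = 0.025). The later Gdf9 call was lost without WT 2-week arrays 1 or 2 or WT 44-week arrays 15, 17 or 18 (up to 0.078). Gdf5, a factor of joint formation, was not called, with group means from 6.59 to 7.56.

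No ligand was called between KI and WT at any age in the reported fit. Over the 10 tested ligands the KI minus WT differences ran from -0.51 to -0.02 at 2 weeks, from -0.67 to 0.82 at 5 weeks and from -0.39 to 0.58 at 44 weeks. With the mean of all probe sets Bmp7 was called between genotypes at 5 weeks. Its second probe set averaged 8.42 in KI and 7.57 in WT at that age, where the one used averaged 9.52 and 9.59. Array weights gave calls of Bmp6, Gdf10, Tgfb1 and Tgfb2 at 5 weeks. Another 11 ligand genes were too dim to test, among them Bmp5, Bmp10 and Gdf11, the activin subunit Inhba and Gdf2, whose product is a ligand of the receptor Acvrl1.

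The latency and processing genes were called lower with age in several comparisons and higher in none. Ltbp1, Ltbp3 and Ltbp4 encode proteins that tether latent TGF-beta in the matrix, and Bmp1 encodes a protease that cleaves procollagen and chordin rather than a BMP. In KI 1 of these 5 tested genes was called lower at 5 against 2 weeks and 3 at 44 against 2 weeks. In WT 4 were called lower at 5 weeks and 3 at 44 weeks, against 2 weeks. Of all genes 8.29% and 15.9% were called lower in these comparisons in KI, and 21.7% and 18% in WT.

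Among the 33 tested members Ltbp1 had the largest fall between 2 and 44 weeks in either genotype. Ltbp1 measured 9.55, 8.91, 9.58 and 9.31 in the KI arrays of 2 weeks and 9.54, 10.52, 9.64 and 8.54 in the WT arrays of that age. At 5 weeks, Ltbp1 read 8.87, 8.18, 8.25 and 8.64 in KI and 8.31, 8.85, 8.85, 8.30 and 8.20 in WT. The 44-week values of Ltbp1 were 7.03, 8.10, 8.21 and 7.62 in KI arrays, against 8.04, 6.87, 7.47 and 6.85 in WT arrays. All 44-week arrays lay below all 2-week arrays of either genotype. The difference at 44 against 2 weeks was -1.60 ± 0.34 (adjusted p = 0.0012) in KI and -2.25 ± 0.34 (adjusted p = 3.5e-05) in WT. In WT the difference was -1.06 ± 0.32 (adjusted p = 0.014) at 5 against 2 weeks, a call lost without WT 2-week array 2 (adjusted p = 0.074), and -1.19 ± 0.32 (adjusted p = 0.012) at 44 against 5 weeks. The later WT difference was -0.95 (adjusted p = 0.18) without WT 5-week arrays 7, 8 and 9 and -1.25 (adjusted p = 0.056) with the tubule covariate. The earlier one was -1.31 (adjusted p = 0.059) without those arrays, -1.06 (adjusted p = 0.056) with only the arrays compared and -0.52 (adjusted p = 0.18) with array weights.

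Ltbp4 followed a similar course. At 2 weeks, Ltbp4 read 7.18, 7.76, 7.28 and 6.97 in KI and 7.57, 8.49, 7.26 and 7.13 in WT. The 5-week values of Ltbp4 were 6.16, 6.30, 6.46 and 6.64 in KI arrays, against 6.54, 6.13, 5.26, 5.32 and 6.40 in WT arrays. For Ltbp4, KI arrays of 44 weeks stood at 6.81, 5.73, 6.01 and 6.52, and WT arrays at 5.13, 5.87, 5.26 and 5.69. The 5-week and 44-week arrays of each genotype were below its 2-week arrays. Between 5 and 2 weeks the KI difference of -0.91 ± 0.31 did not pass (adjusted p = 0.055), and the WT difference was -1.68 ± 0.30 (adjusted p = 2.6e-04). At 44 against 2 weeks it was -1.03 ± 0.31 (adjusted p = 0.015) in KI and -2.12 ± 0.31 (adjusted p = 3.0e-05) in WT. The KI call was lost without KI 2-week array 20 or KI 44-week array 32 (up to 0.061). KI against WT at 44 weeks had the smallest p of the members at that age, 0.78 ± 0.31 with an unadjusted p of 0.0202, but did not pass (adjusted p = 0.72).

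Bmp1 was lower at 5 and at 44 weeks in both genotypes. The 2-week values of Bmp1 were 6.60, 6.63, 6.67 and 6.27 in KI arrays, against 6.53, 7.03, 7.00 and 6.66 in WT arrays. For Bmp1, KI arrays of 5 weeks stood at 5.50, 5.32, 6.04 and 6.02, and WT arrays at 5.01, 5.07, 5.24, 5.63 and 5.80. Bmp1 measured 5.52, 4.80, 5.04 and 5.19 in the KI arrays of 44 weeks and 5.36, 5.53, 5.07 and 5.47 in the WT arrays of that age. No array of 5 or 44 weeks reached the 2-week arrays of its genotype. The difference at 5 against 2 weeks was -0.82 ± 0.20 (adjusted p = 0.0085) in KI and -1.45 ± 0.19 (adjusted p = 1.9e-05) in WT, and at 44 against 2 weeks -1.41 ± 0.20 (adjusted p = 2.7e-05) in KI and -1.45 ± 0.20 (adjusted p = 1.3e-05) in WT. KI was lower again at 44 against 5 weeks, with a difference of -0.58 ± 0.20 (adjusted p = 0.046), a call that any of 12 arrays could end when left out (adjusted p up to 0.14), namely WT 2-week array 5, WT 5-week array 8, WT 44-week array 18, KI 2-week arrays 19, 20 or 21, KI 5-week arrays 23, 25 or 26 or KI 44-week arrays 32, 33 or 34. The other Bmp1 probe sets, which were dimmer, read -0.14 and -0.11 for WT at 44 against 2 weeks. Ltbp3 was lower in WT at 5 against 2 weeks, with a difference of -0.86 ± 0.22 (adjusted p = 0.0057), and Ltbp2 was not called, with group means from 4.65 to 4.88.

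**Figure D2:**
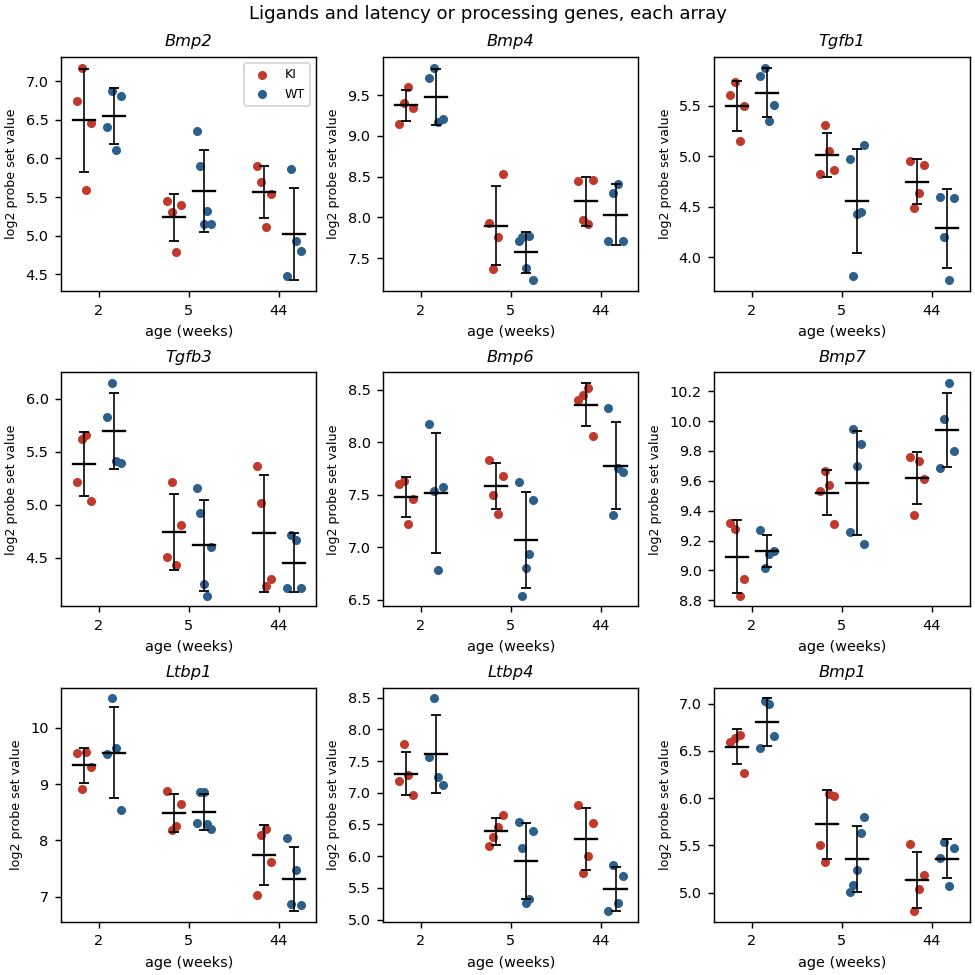
Each panel shows the log2 value of 1 ligand, latency or processing gene on every array, by age in weeks, with KI (red) left of WT (blue). Horizontal lines are group means and bars are SD (n = 4, or 5 for WT at 5 weeks). Bmp4 and Bmp1 at 5 and 44 weeks sit below all 2-week arrays of their genotype, while Bmp7 at 44 weeks sits above them.

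These falls stood beside falls of some cell type markers and rises of others, though not in every comparison. In KI at 5 against 2 weeks, where Bmp1, Bmp2 and Bmp4 fell, 0 of 7 fibroblast, 3 of 9 mesangial and 3 of 8 parietal epithelium markers were called lower. In WT at 5 against 2 weeks 5 of 7 fibroblast markers and 7 of 9 mesangial, pericyte and smooth muscle markers were called lower, as were 5 of 8 parietal epithelium markers. Between 44 and 2 weeks the lower calls numbered 5 of 7 fibroblast and 7 of 9 mesangial markers in KI, and 6 of 7 and 7 of 9 in WT. Of 13 proximal tubule markers 5 were called higher and 1 lower there in KI, and 6 and 1 in WT. Of 10 leukocyte markers 6 were called higher and 1 lower in KI, and 5 and 1 in WT. Of 16 distal tubule markers 2 were called higher in KI and 11 in WT, with 0 lower. Of 17 podocyte identity markers 9 in KI and 8 in WT were called higher, with 0 lower. The fibroblast list mean ranged from 8.35 to 8.83 in KI and 8.55 to 9.13 in WT at 2 weeks, and from 6.38 to 7.26 in KI and 6.39 to 7.21 in WT at 44 weeks. Col1a1, whose promoter drives the ribosome tag and which is also a fibroblast marker, was lower at 44 against 2 weeks, with differences of -4.20 ± 0.41 (adjusted p = 6.2e-07) in KI and -4.66 ± 0.41 (adjusted p = 8.4e-08) in WT. Among podocyte identity markers 9 of 17 were called higher and 0 lower in KI at 5 against 2 weeks, and 12 higher and 1 lower in WT. The part of these cell types in the members' changes was not tested beyond the tubule covariate given above. Fewer cells of a type and less RNA per cell cannot be told apart in these pooled samples.

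**Figure D3:**
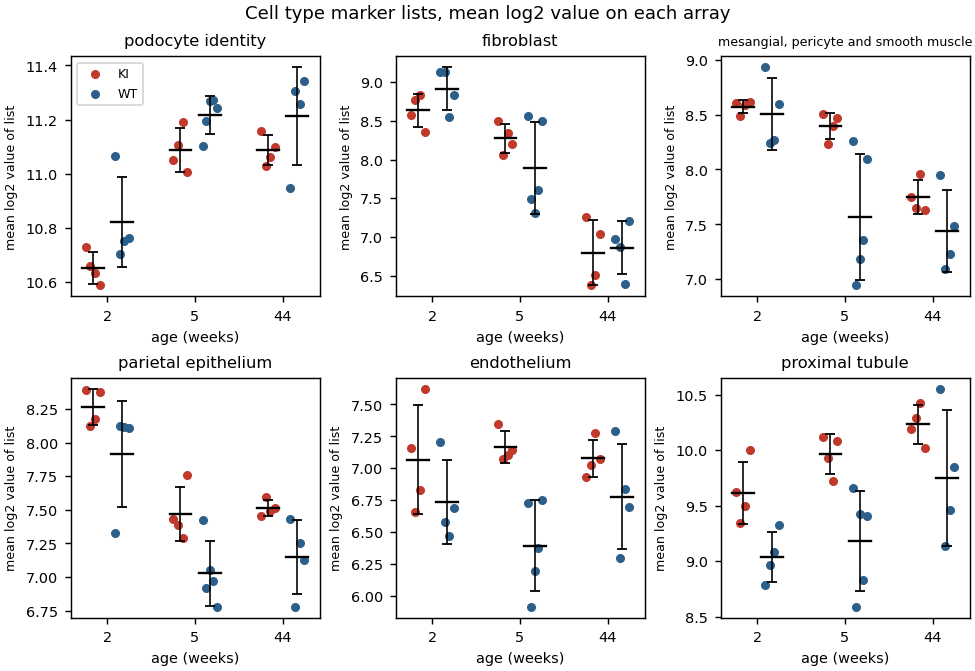
Each panel shows the mean log2 value of 1 marker list on every array, by age in weeks, with KI (red) left of WT (blue), group means as lines and SD as bars. The fibroblast list lies between 6.38 and 7.26 at 44 weeks, below every 2-week array, and the 5-week WT arrays are split in the endothelial and mesangial panels.

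Among the receptors, the genotype calls of 5 weeks were Acvrl1 and Acvr2b. Acvrl1 encodes a type I receptor best known from endothelial cells. For Acvrl1, KI arrays of 2 weeks stood at 6.96, 6.88, 6.97 and 6.77, and WT arrays at 7.50, 6.72, 6.67 and 6.91. Acvrl1 measured 6.44, 6.42, 6.23 and 6.59 in the KI arrays of 5 weeks and 5.22, 5.15, 4.84, 4.99 and 6.34 in the WT arrays of that age. At 44 weeks, Acvrl1 read 5.80, 5.44, 5.78 and 6.28 in KI and 6.06, 5.58, 5.40 and 6.16 in WT. At 5 weeks array 10 of WT lay at 6.34 within the KI range, and the other WT arrays lay below it. KI was higher by 1.12 ± 0.24 at 5 weeks, a ratio of 2.17 (adjusted p = 0.0047). Across age, the WT difference was -1.64 ± 0.24 (adjusted p = 6.3e-05) at 5 against 2 weeks. By 44 weeks the difference from 2 weeks was -1.07 ± 0.26 (adjusted p = 0.0032) in KI and -1.15 ± 0.26 (adjusted p = 0.0016) in WT. A second Acvrl1 probe set read 0.57 for KI against WT at 5 weeks and -1.67 for WT at 5 against 2 weeks.

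Acvr2b encodes a type II receptor for activins. Acvr2b measured 6.08, 5.53, 5.80 and 5.87 in the KI arrays of 2 weeks and 6.57, 5.93, 5.91 and 5.96 in the WT arrays of that age. At 5 weeks, Acvr2b read 6.53, 6.25, 6.34 and 6.34 in KI and 5.52, 5.23, 5.90, 5.36 and 6.27 in WT. The 44-week values of Acvr2b were 6.71, 6.96, 6.45 and 6.53 in KI arrays, against 6.71, 6.57, 6.50 and 6.63 in WT arrays. At 5 weeks WT array 10 reached 6.27, inside the KI range, and the other WT arrays were below 6. KI was higher at 5 weeks by 0.71 ± 0.18 (adjusted p = 0.0098). The 2 dimmer Acvr2b probe sets read -0.11 and -0.10 there, and with the mean of all its probe sets the difference was 0.17 (adjusted p = 0.24). With 44 set against 2 weeks Acvr2b was higher by 0.84 ± 0.19 (adjusted p = 0.0020) in KI and 0.51 ± 0.19 (adjusted p = 0.043) in WT, and the WT call was lost without WT 2-week arrays 2, 3 or 5 or WT 44-week arrays 15, 16, 17 or 18 (up to 0.11). In WT it was also higher at 44 against 5 weeks, by 0.95 ± 0.18 (adjusted p = 0.0012). The WT call at 44 against 2 weeks was also lost with median centring (adjusted p = 0.063) and quantile normalization (0.066). The dimmer Acvr2b probe sets averaged 4.64 and 3.67 in KI at 2 weeks, and 4.61 and 3.62 at 44 weeks. In WT they averaged 4.70 and 3.80 at 2 weeks, and 4.79 and 3.54 at 44 weeks.

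The 5-week genotype calls of Acvrl1, Acvr2b and Smad4 depended on which arrays and covariates were used. Without WT arrays 7, 8 and 9 the differences were 0.64, 0.47 and -0.45, with adjusted p of 0.36, 0.36 and 0.26. With the tubule marker mean as a covariate they were 0.84, 0.46 and -0.35, with adjusted p of 0.16, 0.30 and 0.23. With only the arrays compared, Acvrl1 and Acvr2b did not pass (adjusted p = 0.051 and 0.064), nor did Acvr2b as the average of its probe sets (adjusted p = 0.24). Marker lists differed in the same comparison: 7 of 14 endothelial, 6 of 10 leukocyte, 4 of 9 mesangial and 4 of 13 proximal tubule markers were called higher in KI. So were 3 of 16 distal tubule, 3 of 8 parietal epithelium and 1 of 7 fibroblast markers, with 1 parietal marker lower. Of 17 podocyte identity markers 4 were called lower and 1 higher in KI, with a median of -0.18, and their list mean ranged from 11.01 to 11.19 in KI and 11.10 to 11.27 in WT. The endothelial list mean ranged from 7.07 to 7.35 in KI and from 5.92 to 6.75 in WT, and the leukocyte list mean from 5.63 to 5.86 in KI and 4.73 to 5.59 in WT. The proximal tubule list ranged from 9.72 to 10.12 in KI and 8.59 to 9.65 in WT. The part of these cells beyond the tubule covariate was not tested.

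Whether the genotype difference changed with age was tested as an interaction, and no member passed. At 5 against 2 weeks 4 of 33 members had an unadjusted p under 0.05, beside 18.7% of all genes and 0.0251% called. The smallest p was that of Acvr2b, at 0.98 ± 0.26 (adjusted p = 0.094), followed by Acvrl1 at 1.17 ± 0.35 and Smad6 at 0.86 ± 0.27 (adjusted p = 0.11 and 0.12). At 44 against 5 weeks 6 of 33 had an unadjusted p under 0.05, beside 19.5% of all genes and 0% called, led by Smad4 at 0.58 ± 0.17 (adjusted p = 0.11). Without WT 5-week array 10 each of these tests called 3 members, Acvr2b and Acvrl1 in both, Smad6 in the earlier and Smad4 in the later.

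The BMP type II receptor Bmpr2 and the type I receptor Bmpr1b were called higher with age. At 2 weeks, Bmpr2 read 10.86, 10.75, 10.65 and 10.74 in KI and 11.06, 10.76, 10.82 and 10.66 in WT. The 5-week values of Bmpr2 were 10.84, 10.81, 11.01 and 10.82 in KI arrays, against 10.90, 11.08, 11.06, 11.28 and 11.06 in WT arrays. For Bmpr2, KI arrays of 44 weeks stood at 11.12, 11.21, 11.12 and 11.06, and WT arrays at 11.10, 11.25, 11.45 and 11.20. The 44-week arrays of Bmpr2 were above all 2-week arrays in both genotypes. At 44 against 2 weeks Bmpr2 was higher by 0.38 ± 0.10 (adjusted p = 0.0071) in KI and 0.43 ± 0.10 (adjusted p = 0.0026) in WT, and its dimmer second probe set read 1.41 in KI and 1.66 in WT. The WT difference at 5 against 2 weeks was 0.25 ± 0.10 (adjusted p = 0.046), a call lost on leaving out any of 17 arrays: WT 2-week arrays 2, 3 or 5, WT 5-week arrays 7, 8 or 9, WT 44-week arrays 16 or 18, KI 2-week arrays 20 or 22, KI 5-week arrays 23, 24 or 26 or KI 44-week arrays 31, 32, 33 or 34 (up to 0.17).

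For Bmpr1b the age calls were in KI. The 2-week values of Bmpr1b were 6.26, 5.59, 5.75 and 5.98 in KI arrays, against 5.80, 6.75, 6.36 and 6.51 in WT arrays. For Bmpr1b, KI arrays of 5 weeks stood at 4.87, 4.80, 6.33 and 6.21, and WT arrays at 6.32, 7.33, 5.02, 5.85 and 6.28. Bmpr1b measured 7.14, 6.87, 6.84 and 7.66 in the KI arrays of 44 weeks and 6.69, 7.38, 6.70 and 6.21 in the WT arrays of that age. The KI 44-week arrays lay above all younger KI arrays, and the WT arrays overlapped between ages. KI was higher by 1.57 ± 0.40 (adjusted p = 0.010) at 44 against 5 weeks and by 1.23 ± 0.40 (adjusted p = 0.022) at 44 against 2 weeks, the later comparison losing its call without KI 2-week arrays 20 or 21 or KI 44-week array 34 (up to 0.071). WT differed by 0.58 ± 0.38 and 0.39 ± 0.40 (adjusted p = 0.28 and 0.48), and the test of the genotype effect at 44 against 5 weeks gave 0.99 ± 0.54 (adjusted p = 0.32). Bmpr1a, its near relative, was too dim to test. For Bmpr1a, KI arrays of 2 weeks stood at 3.58, 3.70, 3.58 and 3.82, and WT arrays at 3.69, 3.77, 3.44 and 3.47. Bmpr1a measured 3.56, 3.55, 3.58 and 3.80 in the KI arrays of 5 weeks and 3.79, 3.59, 3.74, 4.09 and 3.60 in the WT arrays of that age. At 44 weeks, Bmpr1a read 3.43, 3.57, 3.55 and 3.55 in KI and 3.48, 3.46, 3.54 and 3.72 in WT. These Bmpr1a values all lay below the limit of 4.60 used for the mean of a tested gene.

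The TGF-beta type I receptor Tgfbr1 was lowest at 5 weeks in KI. Tgfbr1 measured 8.27, 8.37, 8.18 and 8.75 in the KI arrays of 2 weeks and 7.82, 8.33, 8.22 and 8.06 in the WT arrays of that age. At 5 weeks, Tgfbr1 read 8.08, 7.40, 7.51 and 7.57 in KI and 7.90, 7.94, 7.86, 8.16 and 7.45 in WT. The 44-week values of Tgfbr1 were 8.51, 8.77, 8.61 and 8.92 in KI arrays, against 8.62, 8.28, 8.72 and 7.98 in WT arrays. No KI array of 5 weeks reached the KI arrays of 2 or 44 weeks. KI differed by -0.75 ± 0.18 (adjusted p = 0.0088) at 5 against 2 weeks and by 1.06 ± 0.18 (adjusted p = 7.9e-04) at 44 against 5 weeks. WT was higher by 0.54 ± 0.17 (adjusted p = 0.033) at 44 against 5 weeks, a call lost without WT 5-week arrays 8 or 10 or WT 44-week arrays 15 or 17 (up to 0.11). KI against WT at 2 weeks was 0.28 ± 0.18 and did not pass (adjusted p = 0.89).

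The type II receptor Tgfbr2 was not called in any comparison of the reported fit. At 2 weeks, Tgfbr2 read 8.51, 8.55, 8.20 and 8.41 in KI and 8.84, 8.61, 8.32 and 8.64 in WT. The 5-week values of Tgfbr2 were 8.74, 8.89, 8.38 and 8.73 in KI arrays, against 8.98, 8.28, 8.60, 8.57 and 8.67 in WT arrays. For Tgfbr2, KI arrays of 44 weeks stood at 8.75, 8.55, 8.87 and 8.81, and WT arrays at 9.09, 8.76, 8.58 and 8.95. Its groups overlapped, and KI against WT was -0.18 ± 0.15, 0.06 ± 0.14 and -0.10 ± 0.15 at 2, 5 and 44 weeks (adjusted p from 0.77 to 0.97).

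Tgfbr3, the co-receptor betaglycan, was likewise not called. The 2-week values of Tgfbr3 were 9.62, 10.04, 9.70 and 10.00 in KI arrays, against 10.25, 10.30, 9.51 and 9.63 in WT arrays. For Tgfbr3, KI arrays of 5 weeks stood at 9.61, 9.58, 9.87 and 9.79, and WT arrays at 9.97, 10.57, 10.09, 10.29 and 9.75. Tgfbr3 measured 9.59, 9.79, 9.64 and 9.72 in the KI arrays of 44 weeks and 9.25, 10.18, 10.32 and 10.09 in the WT arrays of that age. KI 5-week arrays ran from 9.58 to 9.87 and WT arrays from 9.75 to 10.57, so the groups overlapped. KI against WT at 5 weeks was -0.42 ± 0.20 (95% interval -0.84 to -0.01, adjusted p = 0.13). Its dimmer second probe set read 1.34 in KI and 1.27 in WT at 44 against 2 weeks, where the one used read -0.16 and 0.03. Acvr1, Acvr1b and Acvr2a, the other tested receptors, were not called in any comparison of the reported fit, with group means from 5.70 to 6.45, 8.44 to 8.73 and 9.85 to 10.12. With the mean of all probe sets Acvr1 was called for KI against WT at 5 weeks and in KI at 44 against 5 weeks.

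Smad4, the common partner of the receptor SMADs, was the member called lower in KI at 5 weeks. For Smad4, KI arrays of 2 weeks stood at 10.68, 10.65, 10.25 and 10.11, and WT arrays at 10.78, 10.80, 10.64 and 10.64. Smad4 measured 10.12, 10.04, 10.11 and 10.06 in the KI arrays of 5 weeks and 10.38, 10.46, 10.63, 10.66 and 10.69 in the WT arrays of that age. At 44 weeks, Smad4 read 10.02, 10.47, 10.13 and 10.31 in KI and 9.95, 10.18, 10.15 and 10.23 in WT. At 5 weeks the KI arrays lay between 10.04 and 10.12 and all 5 WT arrays above them. The difference, KI minus WT, was -0.48 ± 0.12, a ratio of 0.717 (adjusted p = 0.0080), and this was the only member of 33 whose 5-week genotypes did not overlap, beside 12% of all genes. Both other Smad4 probe sets also read lower in KI, at -0.37 each. At 2 weeks the difference was -0.29 ± 0.12 (adjusted p = 0.89), at 44 weeks 0.10 ± 0.12 (adjusted p = 0.95), and averaged over the ages -0.22 ± 0.07 (adjusted p = 0.059).

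In WT Smad4 was also lower with age by the probe set used. Between 44 and 2 weeks KI differed by -0.19 ± 0.12 (adjusted p = 0.24) and WT by -0.59 ± 0.12 (adjusted p = 9.8e-04). WT differed by -0.44 ± 0.12 (adjusted p = 0.012) at 44 against 5 weeks, and neither WT comparison had overlapping arrays. The call at 44 against 5 weeks was lost without WT 5-week arrays 7, 8 and 9 (-0.41, adjusted p = 0.12), with the tubule covariate (-0.31, 0.16) and with only the arrays compared (-0.44, 0.064). As the average of its probe sets Smad4 passed in neither WT comparison, at -0.26 (adjusted p = 0.17) against 5 weeks and -0.22 (adjusted p = 0.22) against 2 weeks. The other Smad4 probe sets read -0.09 and 0.02 for WT at 44 against 2 weeks.

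Among the receptor SMADs only Smad3, the transducer of TGF-beta and activin signals, was called. Smad3 measured 10.51, 10.42, 10.22 and 10.02 in the KI arrays of 2 weeks and 10.33, 10.94, 10.39 and 10.23 in the WT arrays of that age. At 5 weeks, Smad3 read 9.91, 10.18, 10.28 and 9.78 in KI and 10.30, 10.56, 10.19, 10.53 and 10.19 in WT. The 44-week values of Smad3 were 10.10, 10.09, 10.12 and 10.23 in KI arrays, against 9.83, 9.75, 10.12 and 10.20 in WT arrays. The KI arrays overlapped between 2 and 44 weeks, and the WT arrays of 44 weeks lay below those of 2 weeks. The WT difference was -0.50 ± 0.15 (adjusted p = 0.017), a call lost without WT 2-week array 2 or WT 44-week array 16 (up to 0.085). The BMP transducer Smad1 was not called. At 2 weeks, Smad1 read 9.05, 9.33, 9.14 and 8.52 in KI and 9.73, 9.88, 8.87 and 8.91 in WT. The 5-week values of Smad1 were 8.87, 8.38, 8.47 and 8.63 in KI arrays, against 8.63, 9.75, 8.81, 8.80 and 9.14 in WT arrays. For Smad1, KI arrays of 44 weeks stood at 8.49, 9.27, 8.74 and 8.71, and WT arrays at 8.41, 9.13, 9.36 and 8.80. Smad1 in KI against WT was -0.34 ± 0.27, -0.44 ± 0.25 and -0.12 ± 0.27 at 2, 5 and 44 weeks (adjusted p = 0.91, 0.21 and 0.98). Smad2 and Smad5 were not called either, with group means from 8.08 to 8.49 and 7.70 to 7.99, and Smad9 was too dim to test.

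Smad6, the inhibitory SMAD of the BMP branch, moved with age in KI. The 2-week values of Smad6 were 6.65, 7.07, 6.79 and 6.73 in KI arrays, against 7.58, 7.11, 7.03 and 7.26 in WT arrays. For Smad6, KI arrays of 5 weeks stood at 7.55, 7.78, 7.53 and 7.33, and WT arrays at 6.75, 7.82, 7.07, 6.75 and 7.22. Smad6 measured 7.01, 6.84, 6.94 and 7.24 in the KI arrays of 44 weeks and 6.29, 7.03, 6.79 and 6.79 in the WT arrays of that age. The KI 5-week arrays were above the KI arrays of 2 and of 44 weeks. KI was higher at 5 against 2 weeks by 0.74 ± 0.20 (adjusted p = 0.015), a call lost without KI 5-week array 24 (adjusted p = 0.053). At 44 against 5 weeks KI differed by -0.54 ± 0.20 and did not pass (adjusted p = 0.061). WT was lower at 44 against 2 weeks, with a difference of -0.52 ± 0.20 (adjusted p = 0.048), a call lost when any of 17 arrays was left out, namely WT 2-week arrays 1, 2 or 5, WT 5-week array 8, WT 44-week arrays 15, 17 or 18, KI 2-week arrays 19, 21 or 22, KI 5-week arrays 23, 24, 25 or 26 or KI 44-week arrays 31, 32 or 33 (up to 0.16).

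Smad7, which restrains both branches, was not called in any comparison. For Smad7, KI arrays of 2 weeks stood at 8.57, 8.74, 8.87 and 9.02, and WT arrays at 8.78, 9.09, 8.43 and 8.42. Smad7 measured 8.65, 8.77, 8.35 and 8.96 in the KI arrays of 5 weeks and 9.25, 9.17, 8.53, 8.88 and 8.10 in the WT arrays of that age. At 44 weeks, Smad7 read 8.25, 9.03, 8.90 and 8.33 in KI and 8.64, 8.76, 8.95 and 8.59 in WT. Its groups overlapped at every age. KI against WT was 0.12 ± 0.22, -0.11 ± 0.21 and -0.10 ± 0.22 at 2, 5 and 44 weeks (adjusted p = 0.96, 0.74 and 0.98). Bmp2k, a kinase named for its induction by BMP2, was not called either, with group means from 7.76 to 8.21.

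**Figure D4:**
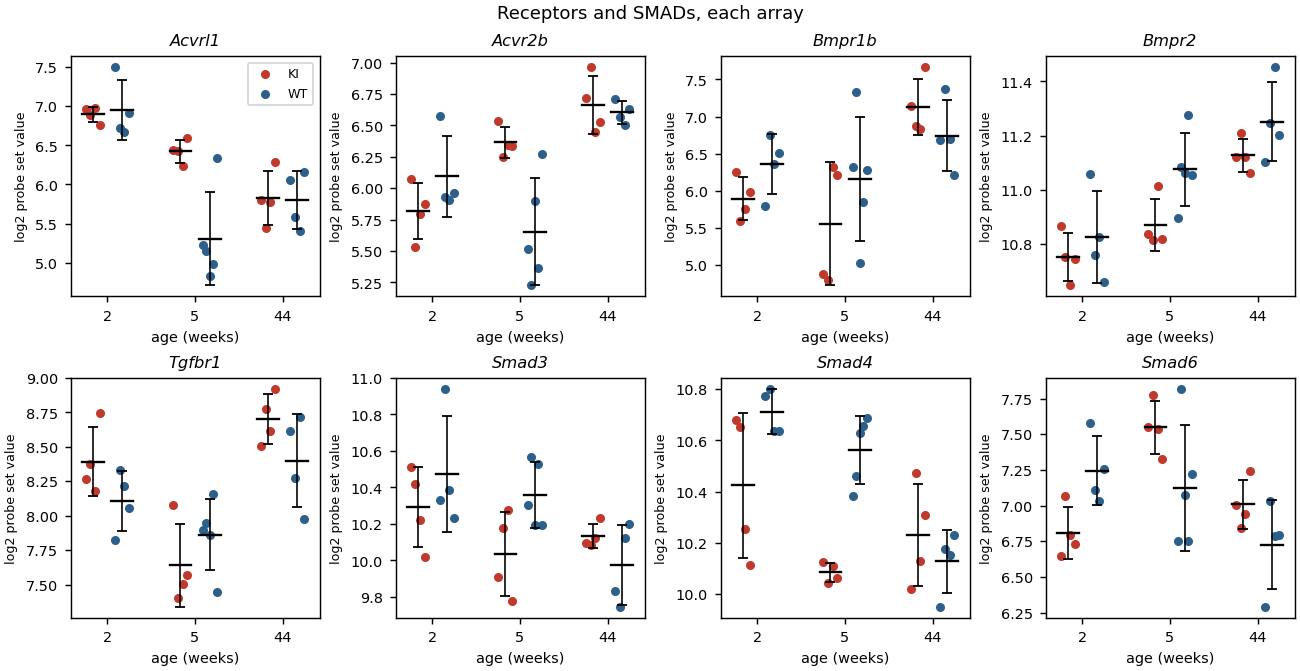
Each panel shows the log2 value of 1 receptor or SMAD on every array, by age in weeks, with KI (red) left of WT (blue), group means as lines and SD as bars (n = 4, or 5 for WT at 5 weeks). At 5 weeks the KI values of Smad4 lie below all WT values, and 1 WT array of Acvrl1, at 6.34, lies among the KI values.

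Some of these age differences were called in both genotypes and in the same direction, and none in opposite directions. With 44 set against 2 weeks Acvr2b, Bmp7 and Bmpr2 were called higher in both, out of 5 higher calls in KI and 3 in WT, or 3 of 33, beside 10.1% of all genes. The WT call of Acvr2b was lost in several other fits, as given above. Acvrl1, Bmp1, Bmp2, Bmp4, Ltbp1, Ltbp4 and Tgfb1 were called lower in both, which are all 7 lower calls in KI and 7 of 13 in WT, or 7 of 33, beside 12.2% of all genes. Between 5 and 2 weeks Bmp1, Bmp2 and Bmp4 were shared, out of 4 lower calls in KI and 10 in WT, or 3 of 33, beside 5.97% of all genes. At 44 against 5 weeks Bmp6 and Tgfbr1 were shared, out of 3 higher calls in each genotype, or 2 of 33, beside 3.04% of all genes. Their WT calls ended with median centring (adjusted p = 0.074 and 0.079) and with quantile normalization (0.097 and 0.078). Quantile normalization also ended the KI call of Bmp6 (0.057), and array weights ended the WT call of Tgfbr1 (0.26).

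RefSeq promoters, of 250 bases before to 50 bases after a listed start on build GRCm38.p6, are shown for those of these 10 genes with exactly 1 listed promoter, since they moved together with age in both genotypes. The Acvr2b window lies downstream of the start of the gene itself, listed at chr9:119401583. Acvr2b (chr9:119401928-119402227, plus strand) and Bmpr2 (chr1:59764029-59764328, plus strand) rose, and Bmp4 (chr14:46390620-46390919, minus strand) and Tgfb1 (chr7:25686752-25687051, plus strand) fell. Capitals mark matches to the SMAD box GTCTG or its reverse CAGAC, and to the palindrome GGCGCC, a motif bound by BMP SMADs.
Acvr2b: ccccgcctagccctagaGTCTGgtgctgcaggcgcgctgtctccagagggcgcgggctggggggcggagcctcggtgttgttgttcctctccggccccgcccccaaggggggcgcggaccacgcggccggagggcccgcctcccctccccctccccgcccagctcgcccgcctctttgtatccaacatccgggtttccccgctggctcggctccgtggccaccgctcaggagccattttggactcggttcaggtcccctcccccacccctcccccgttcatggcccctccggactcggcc
Bmpr2: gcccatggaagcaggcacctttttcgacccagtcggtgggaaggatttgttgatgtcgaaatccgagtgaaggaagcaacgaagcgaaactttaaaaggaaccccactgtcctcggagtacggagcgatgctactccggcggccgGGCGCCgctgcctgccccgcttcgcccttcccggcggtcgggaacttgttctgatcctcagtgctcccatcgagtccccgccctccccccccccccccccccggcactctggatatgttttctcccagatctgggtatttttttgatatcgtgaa
Bmp4: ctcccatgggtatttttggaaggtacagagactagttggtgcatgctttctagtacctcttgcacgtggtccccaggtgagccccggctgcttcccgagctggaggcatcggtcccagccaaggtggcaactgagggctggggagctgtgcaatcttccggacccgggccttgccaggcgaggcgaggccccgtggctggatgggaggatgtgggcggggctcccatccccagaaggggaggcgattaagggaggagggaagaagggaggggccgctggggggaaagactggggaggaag
Tgfb1: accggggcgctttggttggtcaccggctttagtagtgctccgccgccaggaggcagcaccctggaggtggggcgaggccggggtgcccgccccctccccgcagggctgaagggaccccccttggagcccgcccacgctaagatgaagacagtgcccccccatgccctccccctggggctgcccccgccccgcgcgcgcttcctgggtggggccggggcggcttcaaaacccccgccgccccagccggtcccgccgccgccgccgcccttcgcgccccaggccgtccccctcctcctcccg
Acvr2b held 1 SMAD box, Bmpr2 held 1 GGCGCC, and the windows of Bmp4 and Tgfb1 held neither. Promoters were listed for 35 members, 44 windows in all. The SMAD box was in 19 of these (43.2%), against 49.6% of 32851 mouse promoters of the same length, and GGCGCC in 11 (25%), against 11.9%. These shares were not tested, and a match of these letters is a description that shows no binding.

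Known transcriptional targets of the pathway were also called lower with age. Of 20 tested transcriptional targets, 9 were called lower and 2 higher in KI at 44 against 2 weeks, and 9 lower and 3 higher in WT. Of all genes 15.9% were called lower and 14.3% higher there in KI, and 18% and 13.6% in WT. At 5 against 2 weeks 3 were called lower and 1 higher in KI, and 9 lower and 1 higher in WT, beside 8.29% lower and 5.4% higher of all genes in KI and 21.7% and 12.2% in WT. The medians at 44 against 2 weeks were -0.64 in KI and -0.77 in WT, beside -0.01 and -0.03 over all genes. Col1a1, Col3a1 and Cdkn1c in this list are also markers of fibroblasts or podocytes. The alternative fits, with other arrays or covariates, were examined gene by gene for the members only. They did not cover these targets or the other pathway genes below.

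Id1 and Id3 encode inhibitors of helix-loop-helix factors that BMP signals are known to induce. Id1 read 8.84, 9.03, 9.03 and 8.75 in KI and 7.64, 9.22, 8.48 and 8.67 in WT at 2 weeks. At 5 weeks Id1 read 6.62, 7.12, 6.83 and 7.49 in KI and 6.37, 7.64, 6.93, 6.85 and 5.97 in WT. By 44 weeks Id1 was 6.91, 7.36, 7.07 and 6.55 in KI and 6.69, 6.68, 7.09 and 6.79 in WT. All 44-week arrays were below all 2-week arrays. The difference at 5 against 2 weeks was -1.90 ± 0.30 (adjusted p = 3.6e-04) in KI and -1.75 ± 0.28 (adjusted p = 1.3e-04) in WT, and at 44 against 2 weeks it was -1.94 ± 0.30 (adjusted p = 7.1e-05) in KI and -1.69 ± 0.30 (adjusted p = 2.1e-04) in WT.

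Id3 differed by genotype at 5 weeks. It read 9.38, 9.06, 8.97 and 9.69 in KI and 8.32, 8.08, 8.50, 8.52 and 8.89 in WT, without overlap. KI was higher by 0.81 ± 0.20 (adjusted p = 0.0091). Between 5 and 2 weeks Id3 was lower, with differences of -0.80 ± 0.21 (adjusted p = 0.015) in KI and -1.83 ± 0.20 (adjusted p = 4.6e-06) in WT. Of the 20 targets 3 were called higher and 0 lower in KI at 5 weeks, or 15%, against 22% of all genes. Beside Id3 these were Snai1, a repressor of epithelial genes, at 1.09 ± 0.25 (adjusted p = 0.0062), and Col1a1, at 1.09 ± 0.39 with an adjusted p just under the threshold. The WT 5-week mean of Snai1, 4.49, lay below the limit of 4.60 used for the mean of a tested gene.

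Among 16 tested antagonists and extracellular modulators 6 were called lower and 0 higher in KI, and 6 lower and 1 higher in WT, at 44 against 2 weeks. The shares called were 37.5% in KI and 43.8% in WT, against 30.2% and 31.6% of all genes. Fstl1, a secreted follistatin-like protein, was lower, with differences of -1.68 ± 0.26 (adjusted p = 7.1e-05) in KI and -2.02 ± 0.26 (adjusted p = 6.5e-06) in WT. Crim1, a membrane protein that binds BMPs, was higher in WT by 0.86 ± 0.16 (adjusted p = 3.8e-04). At 5 weeks 4 were called lower and 1 higher in KI against WT, or 31.2%, against 22% of all genes. Twsg1 at -0.40 ± 0.13 (adjusted p = 0.027), Vasn at -0.47 ± 0.15 (adjusted p = 0.029) and Chrd at 0.38 ± 0.12 (adjusted p = 0.030) had the smallest adjusted p. The WT 5-week mean of Chrd, 4.58, lay below the limit of 4.60 used for the mean of a tested gene. Twsg1 and Chrd encode BMP-binding proteins, and Vasn one that binds TGF-beta.

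Of 8 other ligands and receptors 1 was called at 5 weeks between genotypes, or 12.5%, against 22% of all genes. It was the co-receptor endoglin (Eng), which is also an endothelial marker. Eng read 9.38, 9.01, 9.38 and 9.27 in KI and 8.30, 6.87, 6.75, 7.03 and 9.27 in WT at 5 weeks. Array 10 of WT was as high as the KI arrays. KI was higher by 1.62 ± 0.37 (adjusted p = 0.0062). At 44 against 2 weeks Eng was lower, with differences of -1.31 ± 0.39 (adjusted p = 0.014) in KI and -1.46 ± 0.39 (adjusted p = 0.0066) in WT.

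Of 21 intracellular regulators 7 were called higher and 4 lower at 44 against 2 weeks in KI, and likewise 7 and 4 in WT, or 52.4% in each, against 30.2% and 31.6% of all genes. Tab2, an adaptor of the kinase encoded by Map3k7, was higher by 0.68 ± 0.10 (adjusted p = 4.1e-05) in KI and 0.56 ± 0.10 (adjusted p = 2.4e-04) in WT. Ldlrad4, a membrane protein that restrains TGF-beta signals, was lower, with differences of -1.16 ± 0.32 (adjusted p = 0.0091) in KI and -2.03 ± 0.32 (adjusted p = 7.2e-05) in WT. Its KI arrays read 8.09, 7.83, 6.39 and 6.23 at 2 weeks and 6.14, 6.37, 5.74 and 5.64 at 44 weeks. The KI arrays of these ages thus overlapped, and the WT arrays did not. Between genotypes at 5 weeks 3 were higher and 2 lower, or 23.8%, near the 22% of all genes. The smallest adjusted p were those of Nedd4l, a ubiquitin ligase, at 0.97 ± 0.23 (adjusted p = 0.0074), Fkbp1a, which binds type I receptors, at -0.36 ± 0.09 (adjusted p = 0.0076), and Tab1 at 0.73 ± 0.18 (adjusted p = 0.0096). Averaged over the ages Nedd4l was called as well, at 0.66 ± 0.14 (adjusted p = 0.020).

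**Figure D5:**
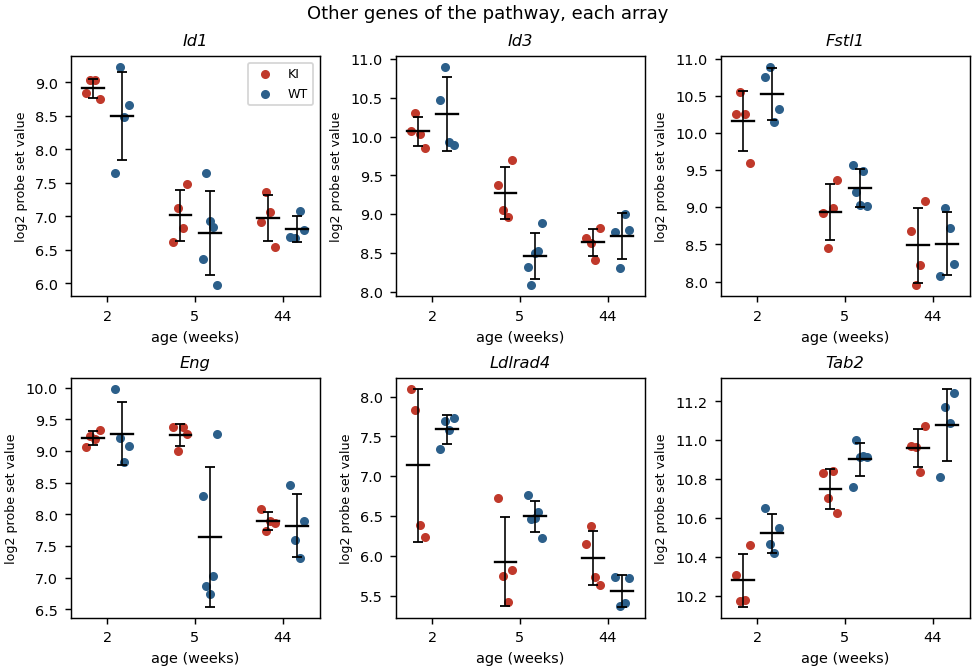
Each panel shows the log2 value of 1 other pathway gene on every array, by age in weeks, with KI (red) left of WT (blue), group means as lines and SD as bars (n = 4, or 5 for WT at 5 weeks). The group means of Id1, Fstl1 and Ldlrad4 are lower at 5 and 44 weeks than at 2 weeks, and those of Tab2 are higher. Between 5 and 44 weeks the means of Id1, and of Ldlrad4 in KI, change little. At 5 weeks the KI values of Id3 lie above all WT values.

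The 14 members that were too dim to test were Acvr1c, Bmp5, Bmp8a, Bmp8b, Bmp10, Bmp15, Bmpr1a, Gdf2, Gdf3, Gdf11, Inhba, Inhbc, Inhbe and Smad9. Their values ranged from 2.73 to 4.91 over all arrays and their group means from 2.86 to 4.53. The widest spread of group means among them was 0.61, for Bmp10. No level of these genes is set against another gene's, since probe sets differ in brightness.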

How the data were processed

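RNA bound to ribosomes of podocytes was measured on 25 mouse arrays with 45141 probe sets. The authors deposited 1 log2 value per probe set and array, and the sources used here do not give the normalization behind these values. Of the probe sets, 28898 had 1 gene symbol, 551 several and 15692 were not in the annotation table, and 99.3% of the symbols were updated through their Entrez identifiers to RefSeq names. Each gene kept its probe set with the highest mean, so 17097 genes remained, and the dimmest 30% (mean under 4.603) were left out of the tests, leaving 11968. Of the members, 25 had more than 1 probe set.

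Limma (version 3.58.1, R 4.3.3) fitted 6 group means (19 residual degrees of freedom, plus 3.045 from the prior). All p-values were adjusted over the 11968 genes. The genotype effect is KI minus WT at an age, and its change with age was tested as an interaction. Groups came from the labels, and the fit was tested on simulated data. Values on every array are given for members called between genotypes, for a list of 18 well known members and for up to 6 members each way with the smallest adjusted p in each age comparison. Of the other pathway genes, up to 3 per list and comparison are named by smallest adjusted p. The members and lists were chosen with earlier results of these data known. Gdf15, which the choice by symbol also named, was not analysed here.

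Alternatives were quantile normalization, median centring, other filters, the mean of all probe sets, array weights, a trended robust prior, fits of the compared arrays alone, tubule and sex covariates, and leaving arrays out.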

Additional observations from a re-analysis of the deposited data

Results flagged for a closer look

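Among 144 groups of arrays examined for the 24 members given by array, 6 had an array far from the others of its group (a gap above Dixon's 95% critical value), about as many as chance gives at 1 in 20. Acvr2b read 6.57 on WT 2-week array 1, against 5.91 to 5.96 on the other 3. Acvrl1 read 6.34 on WT 5-week array 10, against 4.84 to 5.22 on the other 4. Tgfb2 read 6.08 on KI 2-week array 22, against 6.58 to 6.65. Bmpr2 read 11.01 on KI 5-week array 25, against 10.81 to 10.84. Bmpr1a, which was too dim to test, read 3.80 on KI 5-week array 26, against 3.55 to 3.58, and 3.43 on KI 44-week array 31, against 3.55 to 3.57. No member passed a test of the genotype effect between ages.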

How the results depend on the processing

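The number of members called for KI against WT at 5 weeks, 3 as reported, was 1 with the dimmest 50% of genes left out (21 members tested), 11 with array weights, 1 with only the arrays compared, 0 with the tubule covariate and 0 without WT 5-week arrays 7, 8 and 9. Averaged over ages, where 0 were called, it was 1 with the 50% filter, 1 with a trended robust prior and 7 with array weights. For the change of the genotype effect, with 0 calls, array weights gave 5 at 5 against 2 weeks and 4 at 44 against 5 weeks. In KI, 5 against 2 weeks (5 calls) gave 3 with the 50% filter, 14 with array weights, 9 with only the arrays compared and 8 without WT arrays 7, 8 and 9. In KI, 44 against 5 weeks (5) gave 3 with the 50% filter and 9 with array weights, and 44 against 2 weeks (12) gave 5 with the 50% filter. In WT, 5 against 2 weeks (12) gave 5 with the 50% filter and 4 without arrays 7, 8 and 9, 44 against 5 weeks (5) gave 2 with only the arrays compared and 2 with the tubule covariate, and 44 against 2 weeks (16) gave 8 with the 50% filter. Apart from the 50% filter, which tests fewer members, and the arrays left out, the cause was not tested. Leaving out 1 array at a time, the counts ran over 0 to 0 at 2 and at 44 weeks, 3 to 5 at 5 weeks (5 without WT array 10) and 0 to 2 averaged over ages for KI against WT. The average gave 1 or 2 without WT array 6, 10 or 15 or KI array 20 or 32. They ran over 4 to 7, 2 to 6 and 8 to 14 in KI and 8 to 13, 3 to 6 and 12 to 17 in WT (5 against 2, 44 against 5 and 44 against 2 weeks), and 0 to 3 for each change of the genotype effect. Bmp7 in WT at 5 against 2 weeks reversed to -0.0467 with the mean of all probe sets, and Bmp6 averaged over ages to -0.0344 with the tubule covariate. The fit with only the arrays compared was not run for the average, which uses all arrays. No paired analysis was possible because array numbers are unique to each array and the groups share none.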
